A study of Mus musculus with 16 samples.

Results

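The transcripts described here are those of the oxidative phosphorylation complexes of mouse liver, from both genomes that encode them. The members are the protein-coding genes whose symbol starts with mt-, Nduf, Uqcr, Cox4, Cox5, Cox6, Cox7, Cox8 or Atp5, which gave 105 of the 55401 genes in the table. The 13 mt- genes are encoded on the mitochondrial chromosome, with 7 in complex I, 1 in complex III, 3 in complex IV and 2 in complex V. The 92 nuclear members comprise 73 structural subunits, 8 Ndufaf assembly factors of complex I, 8 tissue-restricted isoforms of complex IV and 3 other rows. Of the structural subunits, 36 belong to complex I, 8 to complex III, 11 to complex IV and 18 to complex V.

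Livers of wild-type mice were profiled in 8 groups of 2 libraries each by RNA sequencing of ribosome-depleted total RNA. Thioacetamide (TAA), a compound that hepatocytes convert to reactive metabolites and that is used to produce liver fibrosis in rodents, was dissolved in the drinking water at 300 mg/L over 8 weeks. In 6 groups TAA was then withdrawn for 1, 2 or 4 weeks, in 3 of them with choline chloride at 3.5 g/L and in 3 without choline. One TAA group was taken at 8 weeks with no recovery, and the control group was untreated. The sources used here do not name the strain, sex or age. They also leave unsaid whether replicates are different animals, and p-values then cover only the spread of these libraries, which technical variation may set. In a bulk liver sample, fewer cells of a type and less RNA per cell cannot be told apart.

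Oxidative phosphorylation passes electrons from NADH and succinate along complexes I, II, III and IV to oxygen, and complex V (ATP synthase) uses the resulting proton gradient to make ATP. Complex II is wholly nuclear, whereas complexes I, III, IV and V combine a few hydrophobic subunits made inside the mitochondrion with many imported ones. The mitochondrial mRNAs are cut from long transcripts of the whole chromosome, nearly all of them from the heavy strand, while each nuclear subunit has a promoter of its own. The hepatocyte is rich in mitochondria.

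Libraries held 23.1 to 33.6 M counts (M, mega). Both replicate 1 libraries of the TAA and control groups stood apart from the other 14. Malat1, an abundant nuclear non-coding RNA, stood at 1019 CPM (counts-per-million) in TAA replicate 1 and 146 CPM in control replicate 1. The other 14 libraries held 5230 to 6799 CPM of it. Counts of called members in comparisons with these groups are therefore also given without those 2 libraries, as are the changes of most genes described without choline, which leaves 1 TAA and 1 control library whose spread is taken from the recovery groups. Hepatocyte markers were high in every library, with a summed level of 75580 to 98890 CPM in recovery, 83430 and 70670 CPM in TAA, and 117900 and 95030 CPM in control. The striated muscle list stayed below 1 CPM in sum in every library.

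One feature of the sequences bears on the values of several mitochondrial mRNAs. A segment of chromosome 1 holds a nuclear copy of part of the mitochondrial chromosome, annotated as pseudogenes in which mt-Co2, mt-Atp6, mt-Co3, mt-Nd4l and part of mt-Nd4 are repeated without a single differing base. The mt-Co2 mRNA, for the copper-binding subunit of complex IV that accepts electrons from cytochrome c, is 684 bases long, and the pseudogene Gm28661 matches it over 681 aligned bases with 0 differences. The end of each is shown because it carries the only bases by which the annotated sequences differ. The capitals mark the 3 bases of mt-Co2 that lie beyond the end of the annotated copy, and both are written on the mRNA strand from GENCODE transcripts of GRCm38 (mt-Co2 at chrM:7637-7696 on the plus strand, Gm28661 at chr1:24614885-24614941 on the minus strand).
mt-Co2: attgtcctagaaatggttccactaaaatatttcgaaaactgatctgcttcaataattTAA
Gm28661: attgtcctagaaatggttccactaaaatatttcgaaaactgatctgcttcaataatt
Reads from within these stretches cannot be assigned to one locus by sequence, and the deposited table split them between the rows. In the 12 recovery libraries the mt-Co2 row held 106 to 405 CPM (median 197), whereas mt-Co2 and its copies together held 3390 to 4803 CPM (median 3877). Runs of 50 bases shared with a gene off the mitochondrial chromosome were found for 9 of the 13 mRNAs. The counts of such copies were therefore also added to their mitochondrial row, and those sums are given wherever they change a result.

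The 13 mitochondrially encoded mRNAs together were lower in TAA livers than in any other library. Their summed level was 30925 to 43489 CPM (median 35614) in the 12 recovery libraries, 23144 and 16823 CPM in TAA, and 36927 and 39896 CPM in control. The TAA libraries did not overlap with the recovery or the control libraries. With the nuclear copies added, the sums were 29281 and 20465 CPM in TAA and 49829 and 49656 CPM in control. As a share of all counts, before any scaling between libraries, these mRNAs made up 3.44 to 3.99% in recovery and 2.68% and 2.02% in TAA. In control that share was 2.49% and 3.63%, so on unscaled counts control replicate 1 lay between the TAA libraries. The 95% Wilson interval of each share was at most 0.00764 percentage points to either side, which covers counting error only.

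The nuclear members behaved otherwise. Their summed level was 6212 to 8002 CPM (median 6970) in recovery and 8091 and 6850 CPM in TAA, against 18198 and 8438 CPM in control. On this scale the TAA values lay within or just above the recovery range, and control replicate 1 alone was far above all other libraries. That library held the highest value of all 16 for 84 of the 86 nuclear members that passed the filter on low counts, against 27.2% of all 17292 genes tested, and for 3 of the 13 mitochondrial members. Its level was a median of 2.25 times that of control replicate 2 over the nuclear members and 0.908 times over the mitochondrial ones. Whether the low Malat1 of that library had a part in this was not tested. As a share of all counts, before any scaling between libraries, the nuclear members made up 0.655 to 0.762% in recovery. That share was 0.936% and 0.824% in TAA and 1.23% and 0.768% in control. On unscaled counts both TAA libraries therefore lay above the recovery range.

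**Figure D1:**
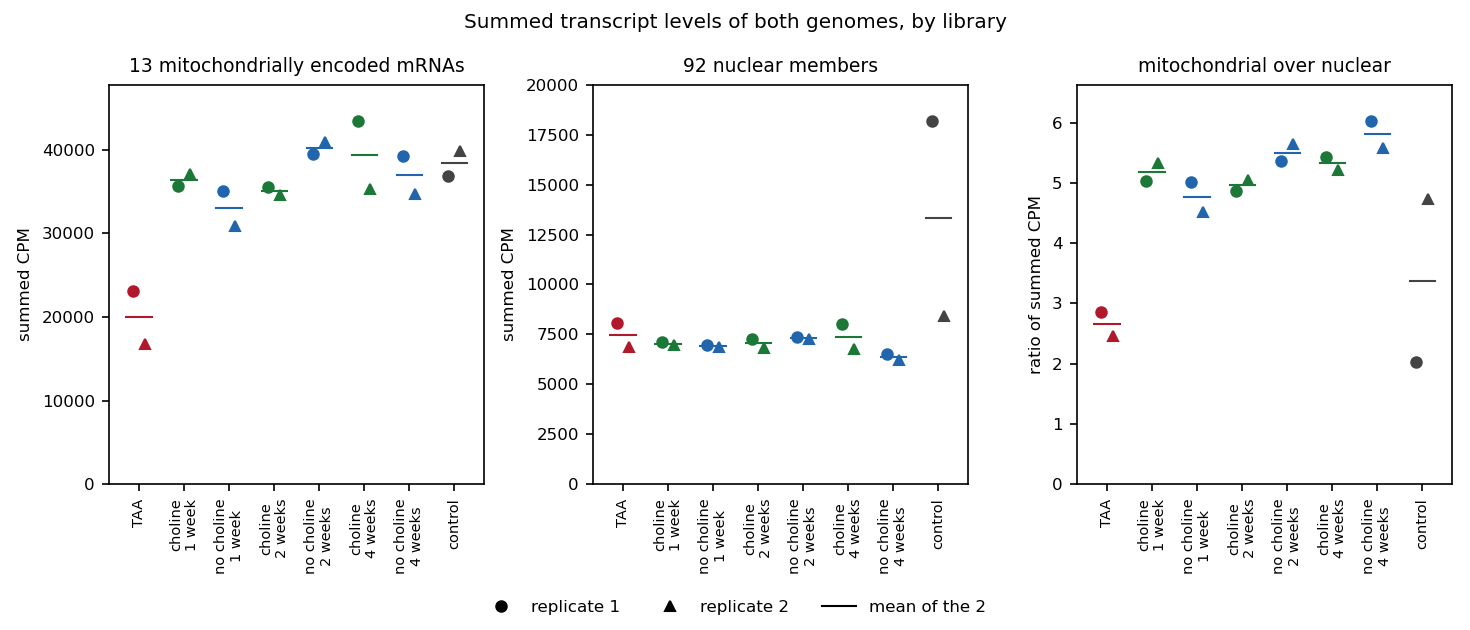
Summed CPM of the 13 mitochondrially encoded mRNAs (left) and the 92 nuclear members (middle) and their ratio (right), for each of the 16 libraries by group. Points are libraries and lines are the mean of the 2; the mitochondrial sum is lowest in the 2 TAA libraries (23144 and 16823 CPM), and the nuclear sum of control replicate 1 (18198 CPM) lies above all others.

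The ratio of both sums compares the genomes within a library, where the scaling between libraries cancels. It was 4.51 to 6.03 (median 5.28) in recovery and 2.86 and 2.46 in TAA, against 2.03 and 4.73 in control. Every recovery library had a higher ratio than either TAA library. On the log2 scale the recovery groups without choline exceeded TAA by 0.85 at 1 week, 1.05 at 2 weeks and 1.13 at 4 weeks. Between TAA and control the log2 ratio differed by -0.22, less than the spread between the 2 control libraries (SD 0.86). Without both libraries low in Malat1 it was -0.95, with 1 library on either side. No test was made on this ratio, since it is a score over chosen members.

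TAA against control asks which transcripts differed after 8 weeks of exposure. Of the 13 mitochondrial mRNAs, 8 fell and 0 rose at an adjusted p under 0.05 in edgeR's quasi-likelihood test, with a median log2 change of -0.96. The share of all genes that fell in this comparison was 11.0%, the share that rose was 10.0%, and the median log2 change over all genes was 0.03. With the nuclear copies added, 10 of 13 fell. When both libraries low in Malat1 were left out, 10 of 13 fell, with a median of -1.23, against 8.73% of all genes. Leaving out TAA replicate 2 left 4 of 13, with a median of -0.68, while the count was 8 or 10 without any other library of the 2 groups.

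In complex I, mt-Nd2, a core proton-pumping subunit, had 2005 and 1047 CPM in TAA and 2993 and 3500 CPM in control. Neither TAA value reached the control range, and mt-Nd2 fell by 1.09 ± 0.26 (SE) on the log2 scale, adjusted p = 0.0125 in edgeR. The mt-Nd1 mRNA, for the subunit beside the ubiquinone site, had 2234 and 1221 CPM in TAA and 3189 and 3065 CPM in control, a log2 change of -0.86 ± 0.24 (adjusted p = 0.0245 in edgeR). For mt-Nd3 the values were 247 and 149 CPM in TAA and 772 and 403 CPM in control, the largest called mitochondrial change at -1.57 ± 0.29 (adjusted p = 0.0039 in edgeR). The mt-Nd3 levels of the control libraries differed by 1.92 times. The mt-Nd5 mRNA, for the largest mitochondrial subunit of the complex, also fell, by 0.87 ± 0.25. Without TAA replicate 2 the changes of mt-Nd1 (-0.47), mt-Nd2 (-0.68) and mt-Nd5 (-0.63) were not called, and without control replicate 2 that of mt-Nd5 (-0.50) was not. Leaving out both libraries low in Malat1 gave -1.33 for mt-Nd1, -1.75 for mt-Nd2, -1.44 for mt-Nd3 and -1.45 for mt-Nd5, all called.

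On their own rows both mt-Nd4 and mt-Nd4l, which are translated from one overlapping mRNA, overlapped between the groups and were not called. The mt-Nd4 level was 2417 and 2144 CPM in TAA and 2393 and 5376 CPM in control, so that control replicate 1 was as low as TAA. With its copies, mt-Nd4l had 301 and 267 CPM in TAA and 324 and 668 CPM in control. These sums did not overlap, but the change of -0.81 ± 0.27 was not called (adjusted p = 0.0555 in edgeR). Both were called without the libraries low in Malat1, at -1.33 for mt-Nd4 and -1.33 for mt-Nd4l with copies. That library had low mt-Nd4l, mt-Nd4 and mt-Nd5 beside high mt-Atp6, mt-Co3 and mt-Nd3, relative to the recovery libraries. The mt-Nd6 mRNA, the only one read from the light strand, had 201 and 250 CPM in TAA and 288 and 317 CPM in control. Its groups did not overlap, but its change of -0.43 ± 0.15 was the smallest of the 13 and was not called (adjusted p = 0.0703 in edgeR).

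For complex III, mt-Cytb, its single mitochondrial subunit, had 2867 and 2103 CPM in TAA and 4824 and 5258 CPM in control. It fell by 1.02 ± 0.21 on the log2 scale, adjusted p = 0.0066 in edgeR. For complex IV, mt-Co1, the catalytic subunit and the most counted member, had 8142 and 5693 CPM in TAA and 12285 and 12817 CPM in control, a log2 change of -0.86 ± 0.19. Both mRNAs separated the groups with little spread within control. Without TAA replicate 2, mt-Co1 changed by -0.61 and was not called. With both libraries low in Malat1 left out the changes were -1.33 for mt-Cytb and -1.18 for mt-Co1, both called.

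The rows of mt-Co2, mt-Co3 and mt-Atp6 need their copies. On its own row mt-Co2 had 128 and 352 CPM in TAA and 717 and 803 CPM in control and was not called (-1.66 ± 0.64). With copies it had 2532 and 2267 CPM in TAA and 4527 and 4927 CPM in control, and fell by 0.98 ± 0.17 (adjusted p = 0.0024 in edgeR). The summed mt-Co3 levels, for another core subunit of complex IV, were 2806 and 1624 CPM in TAA and 7030 and 3837 CPM in control, a fall of 1.29 ± 0.30. On its own row mt-Co3 was called as well (-1.11), but not without both libraries low in Malat1 (-0.60), without control replicate 1 (-1.01) or without TAA replicate 1 (-0.73). For mt-Atp6, the proton channel subunit of complex V, the summed levels were 3380 and 2107 CPM in TAA and 8453 and 5289 CPM in control, a fall of 1.32 ± 0.26. The mt-Atp8 mRNA overlaps that of mt-Atp6 but shares no 50-base run with a copy, and it had 319 and 278 CPM in TAA and 515 and 645 CPM in control (-0.96 ± 0.20, called). When both libraries low in Malat1 were left out, the summed rows changed by -1.12 for mt-Co2, -1.24 for mt-Co3 and -1.33 for mt-Atp6, and mt-Atp8 by -1.22, all called.

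**Figure D2:**
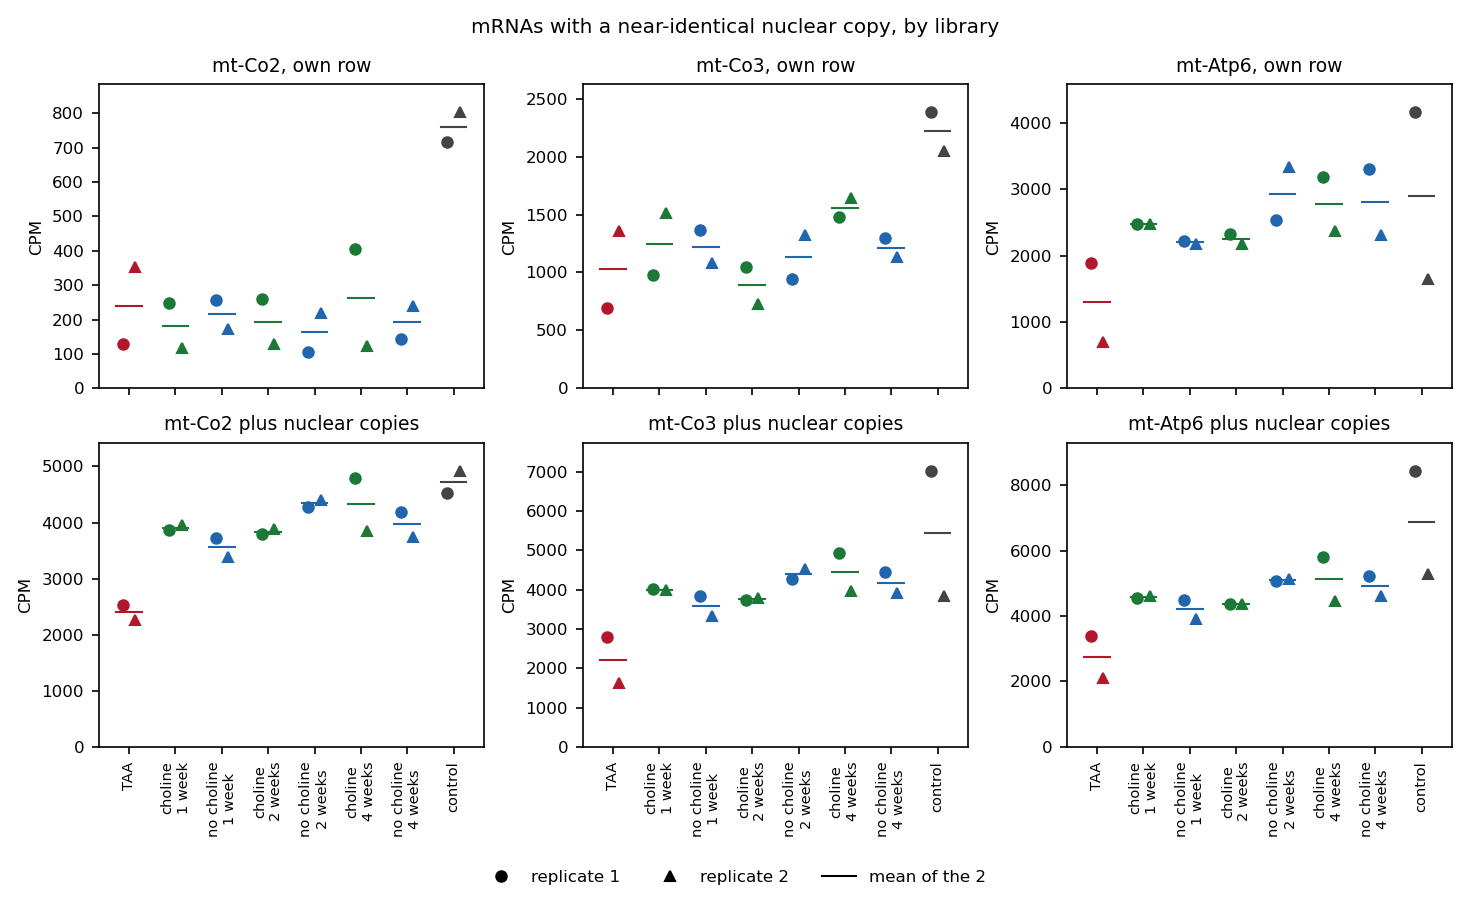
CPM of mt-Co2, mt-Co3 and mt-Atp6 in each library, from the gene's own row (top) and with the counts of its nuclear copies added (bottom); points are libraries and lines are the mean of the 2. The own row of mt-Co2 overlaps between recovery (106 to 405 CPM) and TAA (128 and 352 CPM), whereas the summed values of all recovery libraries (3390 to 4803 CPM) lie above TAA (2532 and 2267 CPM).

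Of the 86 nuclear members tested, 39 fell and 0 rose in TAA against control, with a median log2 change of -0.84. The shares of all genes that fell and rose were 11.0% and 10.0%. Complex I had 14 of 36 subunits lower, complex III 5 of 8, complex IV 6 of 11 and complex V 10 of 17, and 3 of 8 assembly factors were lower. The count changed with each library of the 2 groups. Without control replicate 1, 8 nuclear members fell, with a median of -0.17, where 10.0% of all genes fell. Without control replicate 2 the count was 84 and that share 21.7%. Leaving out TAA replicate 1 gave 13, against 6.13% of all genes, and leaving out TAA replicate 2 gave 8, against 7.07%. A fit of the compared groups alone called 0 of the 99 members of both genomes in edgeR, where the full fit called 47 and 21.0% of all genes, and 13 members had an unadjusted p under 0.05 in it. DESeq2 called 73 in the full fit. The shares of all genes called by DESeq2 and in the fit of the compared groups are not set beside these counts. The counts of those 2 settings therefore do not set the members apart from other genes. Without both libraries low in Malat1 the nuclear median was -0.28, where that of all genes was 0.05.

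The largest called nuclear changes were smaller, but still called, without the libraries low in Malat1. Ndufs7, a core complex I subunit that carries the last iron-sulfur cluster before ubiquinone, lies at chr10:80249121-80256793 on the plus strand (GRCm38). It had 16.7 and 20.3 CPM in TAA and 106 and 58.6 CPM in control, a log2 change of -2.15 ± 0.24 (adjusted p = 0.00026 in edgeR). Without both libraries low in Malat1 the change was -1.54 ± 0.16 (adjusted p = 0.00032 in edgeR). Ndufb2, an accessory subunit of the membrane arm, had 20.2 and 21.1 CPM in TAA and 101 and 36.5 CPM in control (-1.74 ± 0.33, called), and -0.79 ± 0.13 without those libraries, again called. Exons of Ndufb2 overlap Gm42420 on the same strand and Braf on the opposite strand, so some of its counts may belong to other genes.

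Among called nuclear members whose groups did not overlap, the next largest falls were those of Uqcr11 and Uqcrq, small accessory subunits of complex III. Ndufb9 and Ndufb3 of the complex I membrane arm followed. Uqcrq had 139 and 106 CPM in TAA and 509 and 170 CPM in control, a log2 change of -1.47 ± 0.36. Its TAA values lay below control replicate 2 by far less than below control replicate 1, and neither Uqcrq nor Uqcr11 (-1.51 ± 0.37) was called without control replicate 1 (-0.48 and -0.51) or without TAA replicate 2 (-1.26 and -1.29). Ndufb9 changed by -1.41 ± 0.31 and Ndufb3 by -1.40 ± 0.27. Exons of Ndufb9 overlap Gm49356 on the same strand by up to 193 bases, so some Ndufb9 counts may belong to that gene. Leaving out both libraries low in Malat1 reduced the changes to -0.73 for Uqcr11, -0.69 for Uqcrq, -0.62 for Ndufb9 and -0.88 for Ndufb3, all called.

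Recovery against TAA asks what differed once exposure stopped. Without choline, 1, 6 and 7 of the 13 mitochondrial mRNAs rose at 1, 2 and 4 weeks, against 1.97%, 5.13% and 6.47% of all genes, with median log2 changes of 0.69, 0.95 and 0.97. With choline the counts were 4, 4 and 7, against 2.48%, 4.24% and 6.23% of all genes. Of the 86 nuclear members, 1 rose in each of the 6 comparisons, 2 fell at 4 weeks without choline and 1 fell at 2 weeks with it. None of the 13 fell in edgeR in any of these 6 comparisons, where 1.78%, 5.88% and 8.39% of all genes fell without choline and 2.28%, 4.50% and 7.43% with it. Adding the nuclear copies gave 1, 9 and 8 without choline, against 1.97%, 5.16% and 6.47% of all genes, and 5, 6 and 10 with it, against 2.49%, 4.27% and 6.23%. With both libraries low in Malat1 left out, 8, 10 and 9 rose without choline, against 5.54%, 10.1% and 12.2% of all genes, and 8, 9 and 10 rose with it, against 6.84%, 8.75% and 11.7%. All 6 comparisons share the same 2 TAA libraries. Leaving out 1 library of the recovery group, for those without choline, reduced the count of called members of both genomes to 0 and 0 at 1 week, 1 and 0 at 2 weeks, and 2 and 3 at 4 weeks, where the share of all genes called was 0.00556% and 1.29%, 2.41% and 2.43%, and 4.98% and 4.96%. With all libraries the counts were 2, 7 and 10, against 3.75%, 11.0% and 14.9% of all genes. Without TAA replicate 2 it was 1, 3 and 4, against 2.18%, 8.63% and 12.7% of all genes. Control libraries enter these comparisons only through what the fit shares across groups, namely the estimate of spread, the filter on low counts and the scaling. The counts were 16, 23 and 44 without control replicate 1, against 15.6%, 25.0% and 30.9% of all genes. They were 16, 23 and 44 without control replicate 2 as well.

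**Figure D3:**
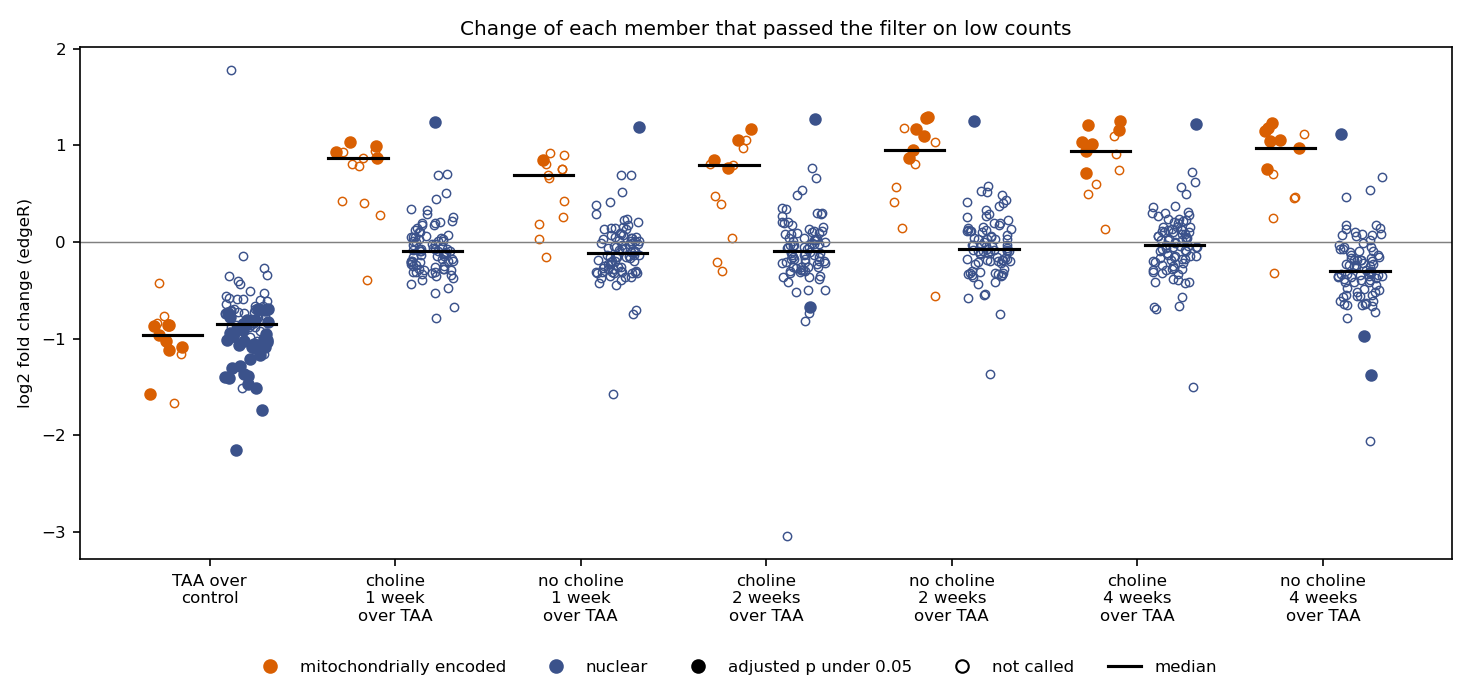
Log2 fold change (edgeR) of each of the 13 mitochondrial and 86 nuclear members tested, in TAA over control and in each recovery group over TAA. Points are members, filled where the adjusted p was under 0.05, and bars are medians; over TAA the mitochondrial medians lie at 0.69 to 0.97 and the nuclear medians at -0.30 to -0.04.

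At the level of single libraries, both TAA values were below all 12 recovery values for 10 of the 13 mitochondrial mRNAs, against 13.5% of all genes tested, and for 12 of 13 with copies added. The exception with copies added was mt-Nd6. For 5 of the 86 nuclear members both TAA values were below all recovery values, and for 14 both were above, where the share of all genes was 16.1%. Those 5 were Ndufs7, Ndufb2, Ndufb9, the assembly factor Ndufaf3 and Cox6c of complex IV, and in each of them TAA was also below both control libraries.

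Among the mitochondrial mRNAs mt-Cytb was called in all 6 comparisons. It had 4647 and 4843 CPM at 1 week with choline and 4926 and 4014 CPM at 1 week without it, against 2867 and 2103 CPM in TAA. At 2 weeks it had 4498 and 4442 CPM with choline and 5370 and 5230 CPM without it. At 4 weeks it had 5849 and 4204 CPM with choline and 5169 and 4564 CPM without it. The log2 changes over TAA without choline were 0.85 ± 0.21, 1.09 ± 0.21 and 0.97 ± 0.21 at 1, 2 and 4 weeks (adjusted p = 0.0490, 0.0083 and 0.0110 in edgeR). No recovery library came down to the TAA range at any time. The call was lost without either TAA or either recovery library at 1 week (0.64 to 1.12), without either recovery library at 2 weeks (1.08 and 1.11), and without TAA replicate 2 (0.75) or recovery replicate 1 (0.88) at 4 weeks. It was called at all 3 times without both libraries low in Malat1 (1.09, 1.34 and 1.21).

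The mt-Nd2, mt-Nd5 and mt-Co1 mRNAs were called in 5 of the 6 comparisons each, all but 1 week without choline. The mt-Nd5 levels were 2670 to 3840 CPM (median 3290) over the recovery libraries, against 1824 and 1289 CPM in TAA, with changes of 1.30 ± 0.25 and 1.18 ± 0.25 at 2 and 4 weeks without choline. For mt-Nd2 the recovery range was 2744 to 3978 CPM (median 3372), against 2005 and 1047 CPM in TAA. For mt-Co1 it was 10590 to 14451 CPM (median 12114), against 8142 and 5693 CPM in TAA. Each of these ranges lay clear of TAA. The mt-Nd4 mRNA was called at 2 and 4 weeks without choline (1.17 ± 0.30 and 1.06 ± 0.30) and at 4 weeks with it, and mt-Nd4l at 4 weeks in both arms. With copies, mt-Nd4l was also called at 2 weeks in both arms (1.22 ± 0.27 without choline and 0.99 ± 0.27 with it). Leaving out both libraries low in Malat1 gave calls of mt-Nd2, mt-Nd5, mt-Co1 and mt-Nd4 at all 3 times without choline. At 4 weeks these changes were 1.77, 1.45, 1.03 and 1.15, and that of mt-Nd4l was 0.91. Without choline, the change of mt-Nd4 stayed between 0.96 and 1.29 when a TAA or recovery library was left out and was then not called. The call of mt-Co1 was lost without TAA replicate 2 or either recovery library (0.71 to 0.98 at 2 weeks and 0.50 to 0.79 at 4 weeks). That of mt-Nd5 was lost in the same cases at 2 weeks (1.06 to 1.31) and without TAA replicate 2 (0.94) or recovery replicate 1 (1.09) at 4 weeks. For mt-Nd2 the cases were either recovery library at 2 weeks (1.34 and 1.22) and recovery replicate 1 at 4 weeks (1.09), and for mt-Nd4l at 4 weeks they were TAA replicate 1 or either recovery library (0.93 to 1.26).

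The light-strand mRNA mt-Nd6 had 217 to 328 CPM (median 298) in recovery, against 201 and 250 CPM in TAA. Here the groups overlapped, and it was called in none of the 6 comparisons. Its change over TAA at 4 weeks was 0.46 ± 0.15 without choline and 0.50 ± 0.15 with it, with copies counted (adjusted p = 0.0658 and 0.0527 in edgeR).

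**Figure D4:**
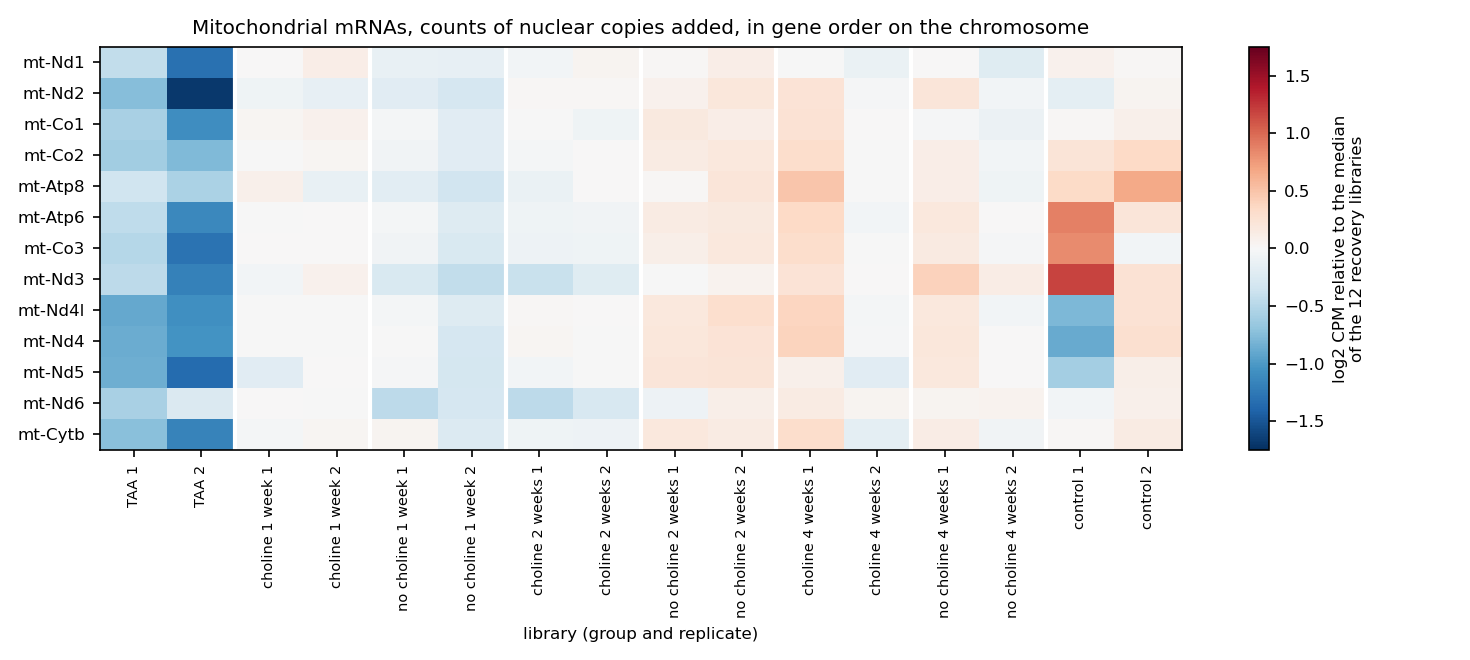
Log2 CPM of each mitochondrial mRNA, with nuclear copies added, relative to the median of the 12 recovery libraries; rows are genes in order along the chromosome and columns are libraries. The TAA columns are low in every row (-0.26 to -1.69), and control replicate 1 is low in mt-Nd4l, mt-Nd4 and mt-Nd5 (-0.59 to -0.89) and high in mt-Atp6, mt-Co3 and mt-Nd3 (0.82 to 1.19).

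A single nuclear member rose in all 6 recovery comparisons, Ndufs7. It had 44.7 and 43.0 CPM at 1 week with choline and 44.4 and 40.1 CPM without it, against 16.7 and 20.3 CPM in TAA. At 2 weeks the values were 47.5 and 41.7 CPM with choline and 43.4 and 44.5 CPM without it, and at 4 weeks 47.9 and 38.4 CPM with choline and 39.4 and 40.7 CPM without it. All 12 libraries lay between TAA and both control libraries. The log2 changes over TAA were 1.24 ± 0.23, 1.27 ± 0.23 and 1.22 ± 0.23 with choline and 1.19 ± 0.23, 1.25 ± 0.23 and 1.11 ± 0.23 without it. Without both libraries low in Malat1 the changes without choline were 1.06, 1.12 and 0.98, all called. In that setting 13, 16 and 5 nuclear members rose and 4, 6 and 19 fell at 1, 2 and 4 weeks, where 5.60%, 10.0% and 13.3% of all genes fell. With choline 12, 15 and 19 rose and 3, 6 and 4 fell, where 6.78%, 8.47% and 12.3% of all genes fell. Among those that rose without choline were Ndufb2 at 0.49, 0.55 and 0.50 and Cox6c at 0.61, 0.72 and 0.66. Without TAA replicate 1 alone the changes of Ndufs7 without choline were 1.09, 1.14 and 1.00 and were not called (adjusted p = 0.130, 0.0560 and 0.0688 in edgeR). The call was also lost without either recovery library at 1 week (1.12 and 1.27) and without recovery replicate 2 at 2 weeks (1.23) and 4 weeks (1.09).

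Both nuclear members that fell at 4 weeks without choline were assembly factors. Ndufaf7 (chr17:78937136-78947499, plus strand), a mitochondrial methyltransferase, had 8.89 and 8.78 CPM at 4 weeks with choline and 6.17 and 5.78 CPM at 4 weeks without it, against 11.1 and 12.3 CPM in TAA. Its change without choline at 4 weeks was -0.97 ± 0.18 (adjusted p = 0.0051 in edgeR), and it was also called at 2 weeks with choline. Ndufaf5 (chr2:140170649-140203689, plus strand), an enzyme that in human cells hydroxylates an arginine of Ndufs7, had 1.55 and 2.29 CPM at 4 weeks without choline, against 4.86 and 5.12 CPM in TAA (-1.37 ± 0.38, adjusted p = 0.0314 in edgeR). Ndufaf5 was not called when any TAA or recovery library was left out (-1.12 to -1.68), nor Ndufaf7 without recovery replicate 2 (-0.92). Both were called without the libraries low in Malat1 (-1.04 for Ndufaf7 and -1.41 for Ndufaf5), where 19 nuclear members fell, 4 of them among the 8 assembly factors.

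**Figure D5:**
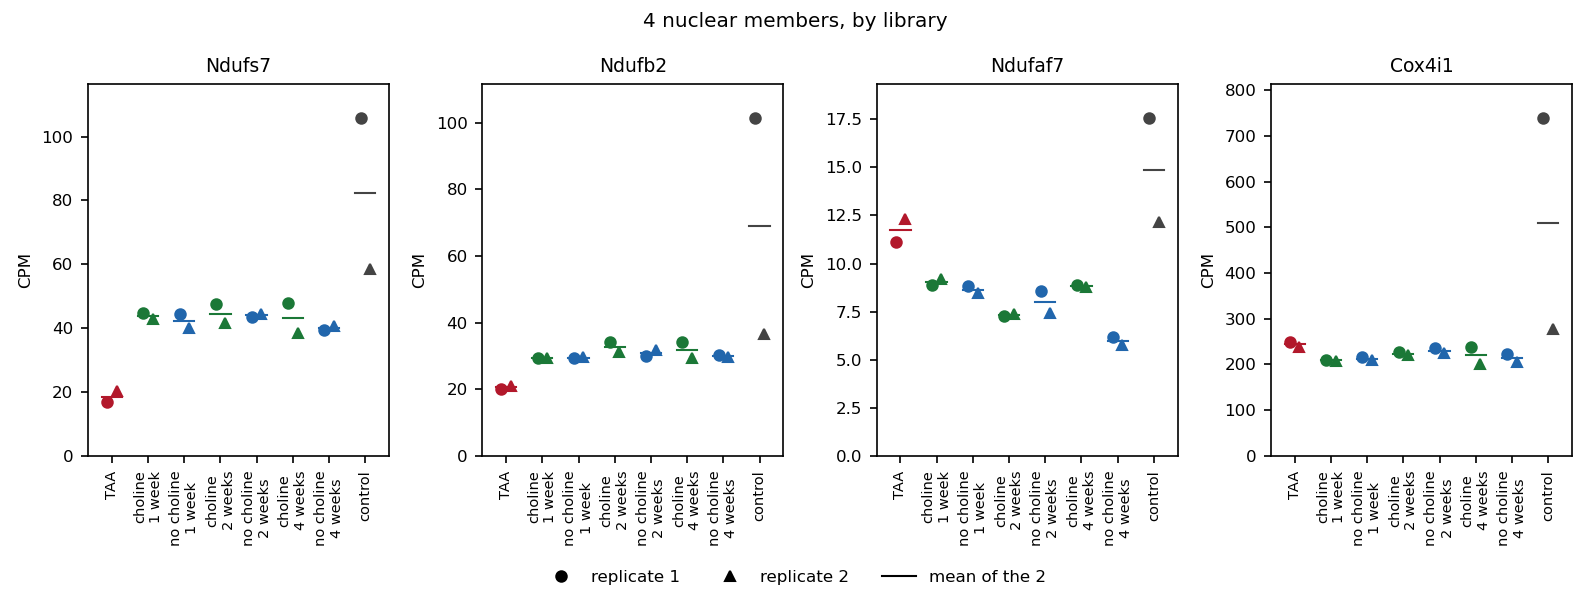
CPM of Ndufs7, Ndufb2, Ndufaf7 and Cox4i1 in each library by group; points are libraries and lines are the mean of the 2. Ndufs7 lies at 38.4 to 47.9 CPM in recovery, above TAA (16.7 and 20.3 CPM) and below control (106 and 58.6 CPM), while Cox4i1 in control replicate 1 (739 CPM) lies above all other libraries.

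Recovery against control asks how far the livers still differed from untreated ones. At 4 weeks without choline 74 of the 86 nuclear members were lower than in control, with a median log2 change of -1.12, where 12.2% of all genes were lower and 7.33% higher. In a fit of those groups alone, edgeR called 0 members. That count, and those below with 1 library left out, are not set beside the share of all genes in the same fit. They therefore do not set the members apart from other genes. None of the 13 mitochondrial mRNAs was called in that comparison by edgeR, and their median was -0.05. Of these 13, mt-Co2, mt-Co3 and mt-Atp8 had, on their own rows, an unadjusted p under 0.05 and negative changes, and DESeq2 called 3. With copies, mt-Co2 had 4196 and 3738 CPM at 4 weeks without choline, against 4527.5 and 4927 CPM in control. The summed mt-Co3 levels were 4439 and 3924 CPM, against 7030 and 3837 CPM in control and so overlapping. EdgeR called 0 of the 13 with copies added as well. Without control replicate 1 the nuclear count was 28, and without either library of the 4-week group it was 1 or 0. In the absence of both libraries low in Malat1, 42 nuclear members and 1 mitochondrial mRNA were lower, against 6.94% of all genes, with medians of -0.45 and -0.12.

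Among called members whose groups did not overlap, the largest changes at 4 weeks without choline were in Cox7a1 and Ndufaf5, both at low levels, and in Atp5k and Atp5e of ATP synthase. Atp5k, subunit e of the membrane part, had 28.9 and 25.2 CPM at 4 weeks without choline and 149 and 45.5 CPM in control (-1.85 ± 0.40). Atp5e, the epsilon subunit of the central stalk, had 71.8 and 71.2 CPM, against 318 and 121 CPM in control (-1.62 ± 0.33). Ndufa8 changed by -1.60 ± 0.26 and Ndufb10 by -1.55 ± 0.29, both accessory subunits of complex I. In all of them the recovery values lay below both control libraries. None of these 6 was called without either library of the 4-week group, and Cox7a1 (-0.67) and Ndufaf5 (-0.94) were not called without control replicate 1. When both libraries low in Malat1 were absent, Cox7a1 (-0.66) and Ndufaf5 (-0.93) were not called, while Atp5k (-0.75), Atp5e (-0.76), Ndufa8 (-0.997) and Ndufb10 (-0.86) were called with smaller changes. Cox7a1 was also not called with the replicate number as a block.

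Fewer members were lower than in control at other times. At 1 week without choline 22 nuclear members and mt-Nd3 were lower, against 2.35% of all genes. With the nuclear copies added, 0 of the 13 mitochondrial mRNAs were lower at that time, so the call of mt-Nd3 was lost. At 2 weeks 0 members were called, where 0.399% of all genes were, although 81 of 99 members had an unadjusted p under 0.05 in edgeR. With choline the counts of lower nuclear members were 18, 1 and 5 at 1, 2 and 4 weeks, where 2.58%, 0.312% and 1.57% of all genes were lower. Ndufaf7 was among those at all 3 times with choline (adjusted p = 0.0497, 0.0392 and 0.0499 in edgeR), but not without both libraries low in Malat1 (adjusted p = 0.152, 0.0535 and 0.111 in edgeR). Leaving out both libraries low in Malat1 reduced the nuclear count to 4 at 1 week without choline, against 1.04% of all genes, and gave 2 at 2 weeks, against 0.582%. With choline that setting gave 1, 1 and 2, against 0.901%, 0.392% and 1.20%. These were Atp5h, a subunit of the peripheral stalk of ATP synthase, at each time and Ndufa8 at 4 weeks.

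Choline against no choline was compared over the 3 recovery times and at each time. No member was called for the mean of the 3 times, where 0.0173% of all genes were called, and 0 of the 99 members had an unadjusted p under 0.05 in edgeR. DESeq2 also called 0. The mitochondrial mRNAs differed by -0.11 (mt-Nd5) to 0.16 (mt-Co2) on the log2 scale, with standard errors of 0.09 to 0.36. The nuclear members differed by -0.13 to 0.41, with a median of 0.07. At each single time 0 members were called and 1 had an unadjusted p under 0.05, and the test of a choline effect that differs between times called 0 members. At 4 weeks 0.0520% of all genes were called and the nuclear median was 0.24. Without both libraries low in Malat1, Atp5k (0.75 ± 0.14, adjusted p = 0.0402 in edgeR) and Atp5g2 (0.62 ± 0.11, adjusted p = 0.0286 in edgeR) were higher with choline at 4 weeks, where 0.588% of all genes rose. Atp5k had 53.2 and 37.8 CPM with choline and 28.9 and 25.2 CPM without it, and these groups did not overlap.

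Levels of different genes were compared per length, in transcripts-per-million (TPM) as deposited and by the median over the 16 libraries. Among mitochondrial mRNAs mt-Atp8 had 6126 TPM and mt-Co1 5869 TPM. The level of mt-Atp8 depends on how length enters, since its annotated mRNA is 204 bases long. Per kilobase of annotated length, with copies added, mt-Co1 had 7845 CPM and mt-Atp6 6733 CPM, against 1994 CPM for mt-Atp8. TPM of mt-Co2, mt-Co3 and mt-Atp6 cover their own rows only and are not ranked here. Among nuclear members the highest of each complex were Ndufb9 with 146 TPM in complex I, Uqcrq with 314 TPM in complex III, Cox4i1 with 275 TPM in complex IV and Atp5b, the catalytic beta subunit, with 579 TPM in complex V. Levels of both genomes came closest between Atp5b and mt-Nd6, which had 554 TPM.

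The isoforms present were those of liver. Cox4i1, the ubiquitous form of subunit IV, had 202 to 239 CPM in recovery and 250 and 239 CPM in TAA, against 739 and 278 CPM in control. Cox4i2, its lung form, stayed at or below 0.139 CPM in every library. The muscle forms Cox6a2 and Cox8b stayed at or below 0.133 and 0.103 CPM, beside 145 to 434 CPM of Cox6a1 and 81.1 to 317 CPM of Cox8a. Cox7a1, the heart and muscle form, had 0.510 to 1.15 CPM in recovery and 0.925 and 0.537 CPM in TAA, against 3.38 and 0.856 CPM in control, while Cox7a2 was above 47.0 CPM in every library. Cox6b2, a testis form, had 0.694 and 0.790 CPM in TAA and 0.183 and 0.240 CPM in control. Both TAA values exceeded all recovery values (0.0383 to 0.659 CPM), but the change over control of 1.78 ± 0.84 was not called. Of Atp5g1, Atp5g2 and Atp5g3, which encode the same mature c subunit of ATP synthase, Atp5g3 had the highest counts in every library.

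The 6 members that did not pass the filter were Cox4i2, Cox6a2, Cox7b2, Cox8b, Cox8c and a duplicate row of Atp5o. Cox7b2, Cox8c and that row were at 0 in all libraries.

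Other genes of the mitochondrion were counted from lists, beside the 10.0% of all genes that rose and 11.0% that fell in TAA against control. The list of complex II and cytochrome c had 6 genes. It also held Cyc1, the cytochrome c1 subunit of complex III, whose symbol is not among the prefixes of the members. Of the 6 genes 3 fell in TAA against control. They were Sdhb (-1.05 ± 0.25) and Sdha (-0.62 ± 0.14), subunits of succinate dehydrogenase, and Cyc1. Of 18 genes of the TCA cycle 8 fell. The 10 of 78 mitochondrial ribosomal proteins that fell, and the 1 that rose and 4 that fell of 36 genes of mitochondrial transcription and DNA maintenance, are shares near those of all genes or below them. Polrmt, the mitochondrial RNA polymerase, was the one that rose, by 0.47 ± 0.13, while 8 of the 13 mRNAs it transcribes fell. Of 45 tested respiratory chain assembly factors 1 rose and 9 fell. Sco2, which delivers copper to the subunit encoded by mt-Co2, fell by 1.58 ± 0.22, and Atpif1, the inhibitor of ATP synthase, rose by 1.42 ± 0.30. At 4 weeks without choline over TAA, Atpif1 fell by 2.10 ± 0.30 and Sco2 rose by 0.79 ± 0.21. In that comparison, with both libraries low in Malat1 left out, the median log2 change of the mitochondrial ribosomal proteins was -0.38. It was -0.07 for the list of mitochondrial transcription and DNA maintenance and 0.02 for all genes. Without both libraries low in Malat1, where 6.40% of all genes rose and 8.73% fell in TAA against control, 1 of the 6 genes of complex II and cytochrome c fell, 4 of 18 genes of the TCA cycle fell and 1 rose, 1 ribosomal protein fell and 3 rose, and 3 respiratory chain assembly factors fell and 2 rose. In the list of mitochondrial transcription 2 fell and 0 rose. Sdha (-0.77), Sco2 (-1.18) and Atpif1 (1.61) were called there, and Sdhb (-0.45) and Polrmt (0.46) were not.

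Among 17 tested regulators of mitochondrial biogenesis, 1 rose and 2 fell in TAA against control, near the shares of all genes. Esrrg, a nuclear receptor that works with the coactivator PGC-1 on oxidative genes, fell by 4.88 ± 0.65, and Sirt3, a mitochondrial deacetylase, fell by 1.16 ± 0.22. Pprc1, a coactivator related to PGC-1, rose by 1.40 ± 0.22. At 4 weeks without choline the regulators did not all change one way over TAA. With both libraries low in Malat1 left out, their median log2 change was 0.47 and at least 2 of the 17 had negative changes. With all libraries 4 of the 17 rose over TAA. They were Ppargc1a, which encodes PGC-1 alpha (1.36 ± 0.31), Ppara, a nuclear receptor for fatty acid oxidation (1.12 ± 0.17), Esrrg (2.23 ± 0.68) and Sirt3 (0.79 ± 0.22), where 6.47% of all genes rose. In the absence of both libraries low in Malat1 Esrrg (-4.24), Sirt3 (-0.66) and Pprc1 (1.11) were called in TAA against control, and at 4 weeks Ppargc1a (1.61), Ppara (1.12) and Sirt3 (0.80) were called over TAA but Esrrg (1.70) was not.

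Cell type markers moved over the same comparisons. In TAA against control 5 of 10 hepatocyte markers fell, 5 of 7 cholangiocyte markers rose and 4 of 7 myofibroblast and stellate markers rose, where 11.0% of all genes fell and 10.0% rose. Without both libraries low in Malat1 the median log2 changes of these lists, in that order, were -0.72, 1.84 and 2.425. Fewer hepatocyte and cholangiocyte markers were called there, and 433 CPM of the cholangiocyte sum stood in TAA replicate 1. Of 6 endothelial markers 3 fell with all libraries. Without the libraries low in Malat1 their median log2 change was -0.54, and at least 1 of the 6 had a positive change. The cholangiocyte list summed to 51.9 to 205 CPM in recovery, 433 and 111 CPM in TAA, and 45.7 and 42.4 CPM in control. The myofibroblast and stellate list summed to 139 to 464 CPM in recovery, 683 and 449 CPM in TAA, and 108 and 94.1 CPM in control. At 4 weeks without choline against TAA, 4 of 10 hepatocyte markers rose, where 6.47% of all genes rose. The endothelial list summed to 219 to 314 CPM in recovery, 172 and 191 CPM in TAA, and 263 and 299 CPM in control. Of its 6 genes 5 rose at 4 weeks without choline over TAA, again against 6.47% of all genes. The brown fat list summed to 23.8 to 334 CPM in recovery, 3.65 and 26.2 CPM in TAA, and 1069 and 571 CPM in control. Nearly all of it was Elovl3, a fatty acid elongase that liver also expresses, with 2.47 and 25.7 CPM in TAA and 1066 and 570.2 CPM in control, while the defining gene Ucp1 was at or below 0.0444 CPM in every library. No gene of the hepatocyte, cholangiocyte, stellate and endothelial lists was at 0 throughout. The part of such shifts in the mitochondrial results was not tested.

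Promoters of the nuclear members were read from RefSeq (GRCm38.p6), 250 bases before to 50 after the start, and 73 of the 92 had one. NRF1 and the ETS factor GABP are known activators of respiratory chain genes. The letters GCGC, any base and TGCGC, the core of the NRF1 motif, were found on either strand in 23.3% of these 73 promoters and in 5.19% of 27025 promoters of all genes. The ETS letters CCGGAAG were found in 23.3% and 9.93%. The promoter of Cox6a1, a structural subunit of complex IV, is shown because it has the highest mean level of the 3 members that hold both sets of letters (chr5:115348909-115349208, minus strand). That of Ndufs7 is shown because it was the only nuclear member called higher in all recovery comparisons over TAA with all libraries (chr10:80249199-80249498, plus strand). Capitals mark the matches, and the Ndufs7 window holds none. That window lies inside the bounds given above for Ndufs7, so bases before the start given there were not read. A match is a description of the letters and was not tested as a binding site.
Cox6a1: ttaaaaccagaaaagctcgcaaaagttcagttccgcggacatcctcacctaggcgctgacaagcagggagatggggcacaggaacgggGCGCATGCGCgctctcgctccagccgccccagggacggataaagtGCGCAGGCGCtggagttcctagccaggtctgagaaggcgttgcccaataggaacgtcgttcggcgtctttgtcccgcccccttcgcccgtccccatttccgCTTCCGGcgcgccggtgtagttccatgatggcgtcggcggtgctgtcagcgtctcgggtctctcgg
Ndufs7: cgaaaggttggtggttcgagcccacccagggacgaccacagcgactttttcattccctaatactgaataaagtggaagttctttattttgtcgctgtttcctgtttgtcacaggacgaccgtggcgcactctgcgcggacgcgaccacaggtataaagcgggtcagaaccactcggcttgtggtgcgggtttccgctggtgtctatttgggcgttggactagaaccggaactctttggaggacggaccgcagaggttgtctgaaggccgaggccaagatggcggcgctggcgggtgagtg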

How the data were processed

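Mouse liver RNA was sequenced in 16 libraries made with a directional kit after ribosomal RNA depletion, per the labels. STAR 2.7.10b, RSEM 1.3.3, the build GRCm38 and DESeq2 1.36.0 are named without their roles, per the submitters' processing notes. No source used here states the aligner settings or whether counting took account of strand. The authors deposited expected counts and TPM per gene in one table each, and 2 columns of each table matched no sample and were not used. The deposited TPM values served to compare genes per length. File starts lie one base below annotated starts, so 1 was added.

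Expected counts were rounded and fitted with edgeR 4.0.16 (R 4.3.3): TMM scaling, filterByExpr, and one quasi-likelihood fit of 8 group means with 8 residual degrees of freedom. Benjamini-Hochberg adjustment ran over all 17292 genes tested, and an adjusted p under 0.05 was called. CPM is relative to the TMM-scaled library size. Fold changes are log2 with their standard error, and a mean or spread within a group has n = 2. The procedure was tested on simulated data.

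Copies were genes off the mitochondrial chromosome sharing a 50-base run with a mitochondrial mRNA in GENCODE transcripts, and their counts were added to it. Genes named are all mitochondrial members, up to 6 called nuclear members per comparison and direction whose groups did not overlap, the highest per complex, isoform pairs, and up to 4 per companion list. Ndufaf3, Cox6c, Atp5g2 and the listing of members whose TAA libraries lay below all recovery libraries were chosen after their values were seen. Members and lists were chosen with earlier results of these data known. Alternatives were other scaling, DESeq2 1.42.0, no filter, compared groups alone, a replicate block, left-out libraries and added copies.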

Additional observations from a re-analysis of the deposited data

How the results depend on the processing

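The count of called members in TAA against control was 47. It was 73 with the DESeq2 test, 78 with no filter on low counts, 0 in a fit of the compared groups alone and 28 without both libraries low in Malat1. Leaving out 1 library gave 12 to 92. At 1 week without choline against TAA the count was 2, and it was 1 with TMM computed without mitochondrial rows and 7SL RNA, 6 with DESeq2, 4 with no filter, 0 in the compared groups alone, 25 without both libraries low in Malat1, and 0 to 16 with 1 library left out. At 2 weeks it was 7, with 12 under DESeq2, 32 without both libraries low in Malat1, and 0 to 23 with 1 library left out. At 4 weeks it was 10, with 18 under no filter, 33 without both libraries low in Malat1, and 2 to 44 with 1 library left out. At 4 weeks without choline against control it was 74, with 0 in the compared groups alone, 43 without both libraries low in Malat1, and 0 to 89 with 1 library left out. For the mean effect of choline it was 0 under each of these alternatives. DESeq2 size factors kept every count within 1.5 times. With all libraries, 21.0% of all genes were called in TAA against control. Over TAA without choline, 3.75%, 11.0% and 14.9% of all genes were called at 1, 2 and 4 weeks. At 4 weeks without choline against control, 12.2% of all genes were lower and 7.33% higher. These shares also changed between the alternatives, so the counts alone do not set the members apart from other genes.

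The log2 ratio of mitochondrial to nuclear sums in TAA against control was -0.95 without both libraries low in Malat1 and between -0.84 and 0.39 with 1 library left out, the positive value without control replicate 2. With the mean log2 over members in place of sums, recovery without choline exceeded TAA by 0.67 at 1 week and 0.86 at 2 weeks. Leaving out 1 library gave 0.74 to 0.96, 0.94 to 1.16 and 1.02 to 1.24 at 1, 2 and 4 weeks. Without control replicate 2 the median change of all genes in TAA against control shifted to 0.22. The cause of these differences was not tested.

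With the replicate number as a block the counts were 55, 3, 7, 13, 77 and 0. Replicate numbers were not taken as pairs: over the 28 pairs of groups the correlation of same-numbered deviations ran from -0.206 to 0.587 and exceeded 0.1 in 8. The highest was that of TAA and control, whose replicate 1 libraries are both low in Malat1, and whether those libraries share a technical effect was not tested. Of 39 results for single genes, 0 reversed under any alternative. All 39 kept their call with DESeq2 size factors, with the DESeq2 test and with nuclear copies added, 38 with the block (all but Cox7a1 at 4 weeks against control), 37 with no filter, 36 without both libraries low in Malat1, and 9 in the compared groups alone. Adding the counts of nuclear copies, and leaving both libraries low in Malat1 out of the ratio, alone or with the copies added, and out of the companion and marker lists, were chosen after seeing the data.

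With 2 libraries a group, calls depend on a spread pooled over groups, and single control or TAA libraries decide many of them.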
